A study of Mus musculus with 2 samples.

Results

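Adhesion molecules on endothelium through which leukocytes are captured, arrested and guided across the vessel wall were described here in single cells of tumour-draining lymph nodes. The 8 genes were chosen by name: Madcam1, Vcam1, Icam1, Icam2, Selp, Sele, Alcam and Itga2b. All 8 were measured in both libraries, among 25815 genes listed in either.

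In lymph nodes, selectins on blood vessels bind sugar-decorated ligands on passing leukocytes and make them roll, and immunoglobulin-family members then bind leukocyte integrins and arrest them. Naive lymphocytes enter mainly through high endothelial venules, which are specialised post-capillary venules lined by tall cells. Lymphatic endothelial cells (LECs) line the sinuses through which lymph-borne cells and antigens arrive, and the floor of the subcapsular sinus, which faces the cortex, is known for displaying MAdCAM-1, VCAM-1 and the integrin alpha IIb chain. Several of these genes, among them Vcam1, Icam1 and Sele, are induced by inflammatory cytokines through NF-kappaB.

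The mouse inguinal nodes comprised 13 from WT animals, pooled into 1 library, and 9 from animals labelled ATG5 KO, pooled into the other. The series title names the latter ATG5LEC-KO, a deletion of the autophagy gene Atg5 in LECs. All nodes drained a tumour. The Cre driver, the deleted exon, strain, age, sex and tumour are not given in the sources used here. Viable cells carrying CD31 but not CD45 or the red-cell marker Ter119 (endothelial) were sorted, CD45+ immune cells were sorted beside them, and both sorts were mixed before capture on a BD Rhapsody system, which reads transcripts from their 3′ ends and counts molecules by unique molecular identifiers (UMIs). With 1 library per genotype there was no replicate, no test was possible, and differences between pools, preparations and genotypes cannot be told apart.

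The WT library held 23649554 UMIs and the KO-labelled library 23089918, from 48832612 and 45647078 reads. After filters and doublet removal, 3860 and 4155 cells remained, of which 717 and 215 resembled LECs (median 8207 and 7856 UMIs) and 632 and 506 blood endothelial cells (BECs, median 4444 and 4576 UMIs). Classes are clusters named by resemblance to markers that exclude the 8 genes. Prox1, the lymphatic master regulator, stood at 1320 and 1334 CPM (UMIs per 1000000 of the class) in LECs and at 6.06 and 10.2 in BECs. The libraries listed 15463 barcodes in common, but only 14 called cells were called in both. RNA outside cells, estimated from B cell genes, made up between 0 and 2.31% of the UMIs of the endothelial classes. Atg5 stood at 40.8 CPM in WT LECs and 44.0 in KO-labelled LECs (235 and 70 UMIs, ratio 1.08, interval 0.814 to 1.41). A 3′ count outside an unnamed deleted part checks nothing about the label, and so "KO-labelled" is used throughout.

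Levels are UMIs of a gene summed over the cells of a class, as CPM of all UMIs of that class other than those of mitochondrially encoded genes. Ranges in brackets or called intervals are 95% intervals that cover counting error only. Levels were compared between classes and libraries for the same gene and not between genes, because no transcript lengths entered the scale. A ratio was called past the fold at 1.5 or more, or at the inverse 0.667 or less, with at least 20 UMIs over the groups compared and at least 20 cells in each library.

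**Figure D1:**
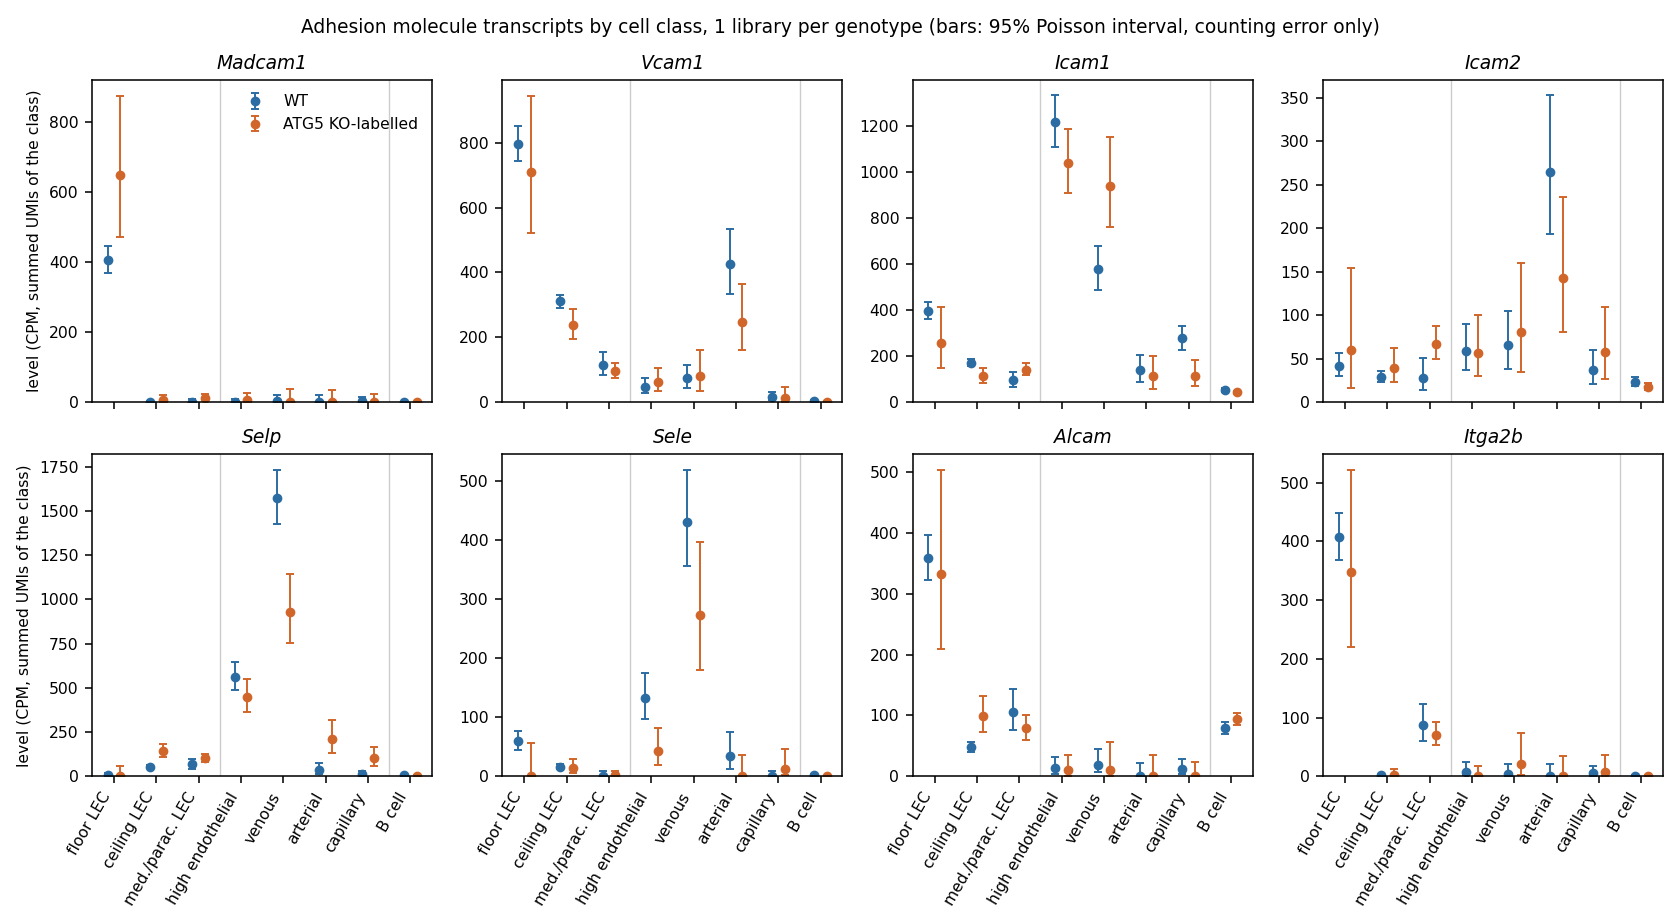
Level of each gene (y axis, CPM of summed UMIs, linear from 0, one scale per panel) in 3 LEC niches, 4 BEC classes and B cells (x axis). Blue points are the WT library and orange points the KO-labelled library, and bars are 95% Poisson intervals. Among the classes shown, Madcam1, Vcam1, Alcam and Itga2b peaked in floor LECs, Icam1 in high endothelial cells, Icam2 in arterial cells, and Selp and Sele in venous cells.

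Madcam1 (ENSMUSG00000020310.9, GRCm38 chr10:79664559-79668537, plus strand) encodes the mucosal addressin, which binds integrin alpha4 beta7. Its transcript was almost wholly a floor LEC transcript in the WT library: 420 of 438 LEC UMIs, or 95.9%, lay in the floor cells. Floor LECs stood at 407 CPM (369 to 447) in the WT pool and at 650 CPM (471 to 876) in the KO-labelled library, the latter from 43 UMIs in 8 cells. Ceiling LECs, which line the outer wall of the same sinus, stood at 1.01 CPM in the WT pool and 6.61 CPM in the KO-labelled library, with 3 UMIs each. Within the WT library the floor level was 402-fold the ceiling level (137 to 1956). Of the WT floor cells 69.7% had at least 1 Madcam1 UMI, against 0 of 1355 WT B cells, which at 3 cells allows a share of up to 0.221% there. Floor cells were deeper, with a median of 7666 UMIs against 2696 in B cells. Thinned to 3000 UMIs per cell, the floor share was 50.8% of the 128 cells that deep. The floor cells were recognised by other genes, such as Coch, which stood at 2156 and 3493 CPM there and at 0.337 and 0 CPM in the ceiling cells. High endothelial cells, where MAdCAM-1 is known from mucosal nodes, held 0 Madcam1 UMIs in the WT pool and 1 in the KO-labelled one. Medullary or paracortical LECs, the sinus cells deeper in the node, held 0 Madcam1 UMIs in 47 WT cells and 10 in 92 KO-labelled cells (12.9 CPM).

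Itga2b (ENSMUSG00000034664.13, GRCm38 chr11:102453297-102470122, minus strand) encodes the integrin alpha IIb chain, which pairs with beta3 and is best known from platelets. It too was a floor transcript, at 407 CPM (369 to 447) in WT floor LECs and 348 CPM (220 to 522) in KO-labelled floor LECs. Of the other niches, medullary or paracortical LECs held 87.5 CPM (60.6 to 122) and 70.9 CPM (53.4 to 92.3), and ceiling LECs were far below with 1.35 and 2.20 CPM. The 3 niches did not overlap in their intervals in either library. Floor exceeded medullary or paracortical LECs 4.65-fold (3.27 to 6.80) in the WT pool and 4.91-fold (2.88 to 8.12) in the KO-labelled one. Of WT floor cells 84.8% had an Itga2b UMI, against 0.148% of WT B cells, and 60.9% against 0.202% when thinned to 3000 UMIs. Of 8 platelet markers 4 had UMIs in WT floor cells, 37 in all (35.8 CPM), and Ppbp, Gp9, Gp1bb and Treml1 were at 0. In BECs Itga2b was at 2.36 and 3.41 CPM.

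Many single floor cells held UMIs of both genes. Of 132 WT floor cells, 92 had a Madcam1 UMI, 112 an Itga2b UMI and 76 both. Shares this high overlap in many cells whether or not the genes go together, so the count does not show that they do. At least 4 of the 8 adhesion genes were found in 108 of the 132 WT floor cells (81.8%) and in 8 of 8 KO-labelled ones, against 24 of 360 (6.67%) and 3 of 67 ceiling cells. Venous cells reached 8 of 42 and 4 of 18. The median depth was 7666 UMIs in WT floor cells and 8594 in WT ceiling cells, so the ceiling cells were the deeper ones.

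The sequences before the start sites of the pair led by floor LECs are shown because their levels peak in the same class. They are the 250 bases upstream of the RefSeq start (GRCm38.p6), 5′ to 3′ on the gene's strand, with motif matches in capitals.
Madcam1 (chr10:79664309-79664558, plus strand): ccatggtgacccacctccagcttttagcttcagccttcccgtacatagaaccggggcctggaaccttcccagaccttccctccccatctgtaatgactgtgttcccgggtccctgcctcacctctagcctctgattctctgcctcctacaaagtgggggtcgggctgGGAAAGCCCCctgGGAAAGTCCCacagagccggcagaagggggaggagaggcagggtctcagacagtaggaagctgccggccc
Itga2b (chr11:102469884-102470133, minus strand): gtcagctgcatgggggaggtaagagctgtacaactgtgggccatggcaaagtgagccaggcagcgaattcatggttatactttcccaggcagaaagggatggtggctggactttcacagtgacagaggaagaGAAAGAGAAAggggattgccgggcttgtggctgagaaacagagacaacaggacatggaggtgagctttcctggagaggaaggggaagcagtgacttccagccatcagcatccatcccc
In Madcam1 the capitals mark 2 matches to the NF-kappaB consensus, read on the opposite strand, at 83 to 74 and 70 to 61 bases before the start. The consensus was found on either strand in 3.90% of 32851 such windows. In Itga2b the capitals mark the core of the interferon-stimulated response element at 118 to 109 bases before the RefSeq start (2.98% of windows). That start lies inside the span of Itga2b given above, and so do the match and most of the window. The 2 windows shared none of the 4 motifs searched, and a match is a string of letters and not a measured site.

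Vcam1 (ENSMUSG00000027962.14, GRCm38 chr3:116109949-116129688, minus strand), the ligand of integrin alpha4 beta1, was highest in floor LECs, with 796 CPM (742 to 852) in the WT pool and 711 CPM (522 to 945) in the KO-labelled library. Ceiling LECs followed with 310 CPM (291 to 331) and 238 CPM (195 to 287), and medullary or paracortical LECs with 116 and 95.4 CPM. This order of niches was the same in both libraries, and neighbouring intervals did not overlap. Of the 4 BEC classes high endothelial, venous, arterial and capillary, Vcam1 was highest in arterial cells, at 426 CPM (335 to 535) and 248 CPM (162 to 364), and lowest in capillary cells, at 14.6 and 12.8 CPM from 6 and 2 UMIs. Tip-like capillary cells lay lower still (8.66 and 11.5 CPM), with overlapping intervals, and a Cxcl9-led BEC sub-cluster found mostly in the KO-labelled library, described further on, stood above its arterial cells. The arterial level was 29.2-fold (12.8 to 82.1) the capillary level in the WT pool and 19.3-fold (4.84 to 168) in the KO-labelled library. Venous cells (73.2 and 80.9 CPM) and high endothelial cells (45.8 and 61.8 CPM) lay between, with overlapping intervals. In 87.9% of WT floor cells Vcam1 had a UMI, against 0.664% of WT B cells, and 74.2% against 0.606% when thinned to 3000 UMIs. Pericyte and smooth muscle markers summed to 406 CPM in the WT floor cells (3 of 7 with UMIs, Acta2, Notch3, Cspg4 and Des at 0) and to 620 CPM in the KO-labelled floor cells (1 of 7, Rgs5, with Acta2 at 0), and their part in the Vcam1 level was not tested.

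Icam1 (ENSMUSG00000037405.8, GRCm38 chr9:21015985-21028817, plus strand), the ligand of LFA-1 on lymphocytes, was led by high endothelial cells at 1217 CPM (1107 to 1335) in the WT pool and 1041 CPM (908 to 1189) in the KO-labelled library. Venous cells stood at 578 CPM (489 to 678) and 941 CPM (759 to 1153). High endothelial and venous cells thus lay apart in the WT pool and overlapped in the KO-labelled library. Arterial cells were low in both, at 138 and 115 CPM. A BEC sub-cluster outside the named classes, led by Egr1 and Fosb, stood at 963 and 811 CPM (180 and 111 UMIs). Of the LEC niches, floor cells stood at 397 CPM (359 to 437) and 257 CPM (150 to 412), ceiling cells at 171 and 112 CPM, and medullary or paracortical cells at 95.2 and 142 CPM. The last 2 niches lay apart in the WT pool and overlapped in the KO-labelled one. Icam1 was also read in B cells, at 51.9 and 42.8 CPM, and 9.23% of WT B cells had a UMI against 91.0% of WT high endothelial cells (median 5398 UMIs), or 10.5% and 67.2% when thinned to 3000 UMIs.

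Icam2 (ENSMUSG00000001029.15, GRCm38 chr11:106377656-106388075, minus strand) is a constitutive LFA-1 ligand of endothelium. Arterial cells led, at 265 CPM (194 to 353) in the WT pool and 143 CPM (80.2 to 236) in the KO-labelled library. Venous cells stood at 65.5 and 80.9 CPM, high endothelial cells at 59.2 and 57.1 CPM, and capillary cells at 36.5 and 57.8 CPM, and the intervals of these 3 classes overlapped in both libraries. Arterial cells exceeded capillary cells 7.26-fold (3.98 to 14.0) in the WT pool and 2.48-fold (1.02 to 6.43) in the KO-labelled library. LEC niches were flat, between 28.3 and 41.6 CPM in the WT pool and between 39.6 and 67.0 CPM in the KO-labelled library, with overlapping intervals. B cells stood at 23.7 CPM (18.8 to 29.3) in the WT library, which overlapped the WT ceiling and medullary or paracortical LECs but not the floor cells.

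Selp (ENSMUSG00000026580.16, GRCm38 chr1:164115264-164150026, plus strand) encodes P-selectin, which is stored in endothelial granules and moved to the surface within minutes of activation. It was a venous transcript in both libraries, at 1572 CPM (1423 to 1732) in 42 WT cells and 931 CPM (750 to 1142) in 18 KO-labelled cells. Among BECs high endothelial cells followed at 563 CPM (489 to 644) and 447 CPM (361 to 547). Venous exceeded high endothelial cells 2.79-fold (2.36 to 3.32) and 2.08-fold (1.54 to 2.81). A single WT venous cell held 100 of the 408 WT venous UMIs. Capillary and arterial cells were much lower in the WT library, at 12.2 CPM and 34.6 CPM, than in the KO-labelled library, at 103 and 210 CPM. Of the 3 LEC niches Selp was lowest in floor cells, at 9.68 and 0 CPM. The venous cells also held some Prox1, 53.9 CPM in the WT pool and 233 CPM in the KO-labelled library (14 and 23 UMIs), and what this adds to their Selp level was not tested.

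Sele (ENSMUSG00000026582.6, GRCm38 chr1:164048234-164057677, plus strand) encodes E-selectin, which is made after cytokine stimulation. It followed the same order as Selp within BECs: venous cells stood at 431 CPM (355 to 519) and 273 CPM (180 to 397), and high endothelial cells at 132 CPM (97.6 to 174) and 42.8 CPM (19.6 to 81.2). Venous exceeded high endothelial cells 3.27-fold (2.32 to 4.67) and 6.38-fold (2.91 to 15.4). Capillary cells held 0 Sele UMIs in the WT library, so that venous cells were at least 59.1-fold higher there, and 2 UMIs in the KO-labelled library. Unlike Selp, which had 10 UMIs in WT floor LECs, Sele was higher there than in ceiling LECs, 3.65-fold (2.46 to 5.44). The WT floor cells held 61 Sele UMIs (59.1 CPM, 45.2 to 75.9), found in 20 of 132 cells. A WT LEC sub-cluster outside the named niches, led by Cyp1b1 and Csf1, stood at 76.6 CPM from 22 UMIs. The 8 KO-labelled floor cells held 0 Sele UMIs, which at 3 counts allows up to 45.4 CPM.

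The upstream windows of the selectin pair, which are neighbours on chromosome 1, are shown because both genes peaked in venous cells in both libraries.
Sele (chr1:164047984-164048233, plus strand): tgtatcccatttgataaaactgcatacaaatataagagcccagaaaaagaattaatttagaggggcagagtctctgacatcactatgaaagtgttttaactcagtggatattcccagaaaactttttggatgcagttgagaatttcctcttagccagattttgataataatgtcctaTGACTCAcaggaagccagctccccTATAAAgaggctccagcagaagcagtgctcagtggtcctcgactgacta
Selp (chr1:164115014-164115263, plus strand): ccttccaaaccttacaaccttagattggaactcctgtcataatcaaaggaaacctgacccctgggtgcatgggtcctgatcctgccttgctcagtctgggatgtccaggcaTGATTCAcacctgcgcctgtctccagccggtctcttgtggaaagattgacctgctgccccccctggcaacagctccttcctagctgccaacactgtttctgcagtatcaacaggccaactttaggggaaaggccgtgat
The capitals mark TGANTCA (N is any base), a pattern that reads the same on both strands. It lies at 73 to 67 bases before the Sele start and 139 to 133 bases before the Selp start. The Sele match is TGACTCA, an AP-1 core, and the Selp match is TGATTCA, which is not. The wider pattern was found in 6.75% of windows. In Sele the capitals also mark TATAAA at 49 to 44 bases before the start (12.4% of windows). None of the 4 motifs matched in the windows of Icam1 and Alcam, which says only that these letters are not there.

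Alcam (ENSMUSG00000022636.13, GRCm38 chr16:52248996-52454074, minus strand) encodes CD166, the ligand of CD6 on T cells. Alcam was a LEC gene within the endothelium, at 125 and 122 CPM in LECs against 10.4 and 11 CPM in BECs, which is 12-fold (8.36 to 17.8) in the WT pool and 11.1-fold (7.49 to 17.0) in the KO-labelled library. Of the 3 niches, floor LECs led at 358 CPM (323 to 397) and 333 CPM (208 to 504), and the KO-labelled cells of the Stab2-led sub-cluster reached 359 CPM. In the WT library ceiling LECs (47.9 CPM, 40.4 to 56.5) lay below medullary or paracortical LECs (105 CPM, 75.7 to 143), and in the KO-labelled library both overlapped (99.1 and 78.6 CPM). B cells carried Alcam at 78.7 and 93.4 CPM, above every BEC class named here, so the low BEC reads were not told apart from RNA of immune cells.

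Read against all genes, the within-library steps of these genes stood as follows in the WT library, as a description of classes that share a library. From ceiling to floor LECs, 6 of the 8 genes were at least 1.5-fold higher, against 19.2% of 10429 genes, Selp was lower (0.184-fold), and Icam2 (1.43-fold) was under the fold. From capillary to venous cells 5 of the 5 genes with enough UMIs were higher, against 20.2% of 5808 genes. The same 5 genes (Vcam1, Icam1, Icam2, Selp, Sele) were higher from capillary to high endothelial cells, against 20.9% of 6244 genes. The Icam2 step had an interval that held 1 in both of these comparisons (1.79-fold, 0.843 to 3.86, and 1.62-fold, 0.805 to 3.36). From capillary to arterial cells 2 of 3 genes were higher, Vcam1 and Icam2, against 21.6% of 5359 genes, and Icam1 was lower (0.498-fold, 0.307 to 0.779).

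Between the libraries, over all LECs, Madcam1 stood at 76.0 CPM in the WT pool and 37.1 CPM in the KO-labelled library (ratio 0.488, interval 0.365 to 0.642). Vcam1 stood at 362 and 167 CPM (0.462, 0.405 to 0.525), and Sele at 23.6 and 5.03 CPM (0.213, 0.0902 to 0.432). Those 3 genes were lower past the fold, and Selp and Icam2 were higher. Selp stood at 54.1 and 162 CPM (3.0, 2.53 to 3.54) and Icam2 at 32.8 and 53.4 CPM (1.63, 1.25 to 2.12). Icam1 (ratio 0.709), Itga2b (0.686) and Alcam (0.976) stayed under the fold. Thus 2 of 8 genes were higher and 3 of 8 lower in LECs, where 11.3% of 11647 genes were higher and 13.0% lower. The share of mitochondrial UMIs was 7.24% in WT and 10.4% in KO-labelled LECs, and fibroblast or reticular markers summed to 55.2 and 138 CPM (4 of 7 with UMIs in each, Col1a1 and Lum at 0 in both), and their part in these ratios was not tested. Changes in the number of cells of a niche and in RNA per cell enter these sums together, and the niches are therefore taken one by one below.

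Over all BECs, Vcam1 stood at 53.5 CPM in the WT pool and 118 CPM in the KO-labelled library (ratio 2.21, interval 1.82 to 2.69). Selp stood at 229 and 135 CPM (0.589, 0.517 to 0.671) and Sele at 59.6 and 20.8 CPM (0.350, 0.254 to 0.476). Vcam1 was the 1 gene of 6 that was higher past the fold and the selectins were the 2 that were lower, where 6.52% of 11096 genes were higher and 9.69% lower. Icam1 (437 and 326 CPM, 0.746), Icam2 (70.4 and 81.1 CPM, 1.15) and Alcam (1.05) were under the fold. Madcam1 and Itga2b were under the minimum of 20 UMIs in BECs.

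The mix of classes differed between the libraries and moved with these sums. Cluster sizes are a description, since genes that define a cluster may themselves differ between libraries. Floor LECs were 132 of 717 LECs (18.4%) in the WT pool and 8 of 215 (3.72%) in the KO-labelled library, and medullary or paracortical LECs 47 (6.56%) and 92 (42.8%). Of the Madcam1 UMIs in LECs 95.9% and 72.9% came from the floor cells, and of the Itga2b UMIs 82.8% and 24.0%. Without the floor cells, an alternative chosen after seeing the data, the Madcam1 ratio in LECs was 2.76, from 18 and 16 UMIs. In BECs a sub-cluster led by Cxcl9 and Gbp2, genes induced by interferon gamma, held 2 WT cells (0.316%) and 59 KO-labelled cells (11.7%). It held 73.1% of the KO-labelled Vcam1 UMIs of BECs, at 574 CPM, and without it the BEC ratio of Vcam1 was 0.694. Markers of monocytes, macrophages and dendritic cells summed to 1098 CPM in the KO-labelled cells of that sub-cluster, with Csf1r, Itgax and Xcr1 at 0. The marker list includes H2-Ab1, which is among the leading genes of the sub-cluster. Of its KO-labelled cells with an assigned sex 97.7% were male. The parts of library, marker-bearing RNA and animal in its Vcam1 level were not tested. Venous cells held 408 of the 680 WT Selp UMIs of BECs and 92 of the 356 KO-labelled ones (25.8%), where the venous Selp ratio was 0.592. In the mean log ratio of the 5 named BEC classes with at least 20 cells in each library, which leaves out venous cells and the unnamed sub-clusters, Selp was at 3.53 and Vcam1 at 0.975. The tip-like class enters that Selp mean with 1 and 10 UMIs. Floor cells held 44.9% of the WT Sele UMIs of LECs and none of the KO-labelled ones.

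**Figure D2:**
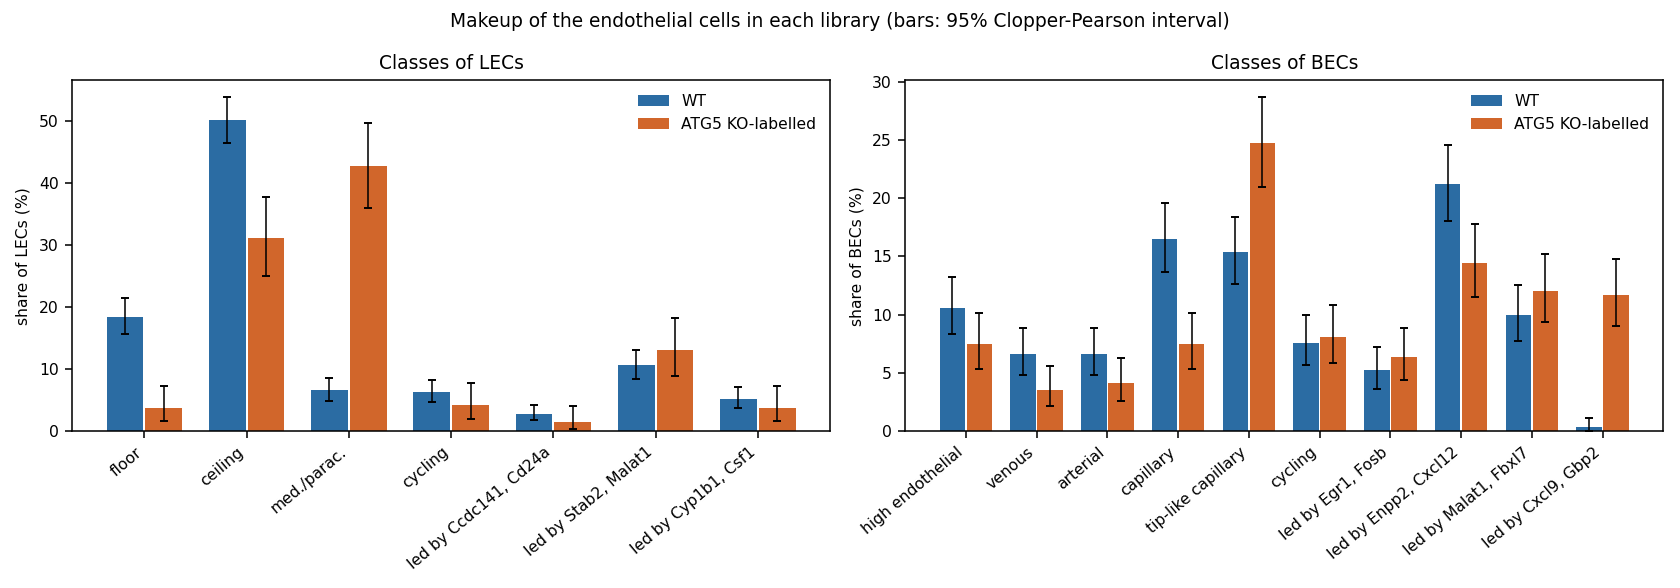
Share of LECs (left) and BECs (right) in each class (y axis, %), for the WT library (blue) and the KO-labelled library (orange), with 95% Clopper-Pearson intervals. Floor LECs were 18.4% of WT LECs and 3.72% of KO-labelled LECs, and the sub-cluster led by Cxcl9 and Gbp2 held 0.316% of WT BECs and 11.7% of KO-labelled BECs.

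Within ceiling LECs, Selp stood at 52.6 CPM in 360 WT cells and 143 CPM in 67 KO-labelled cells (ratio 2.72, interval 2.00 to 3.65). A single KO-labelled cell held 19 of the 65 UMIs, which lay in 16 cells. Without the top cell of each library the Selp ratio was 2.04 (1.43 to 2.86). The sub-cluster ratios given below were not computed without that cell. Alcam stood at 47.9 and 99.1 CPM (2.07, 1.44 to 2.91) and Icam1 at 171 and 112 CPM (0.657, 0.482 to 0.877). These 3 of 6 genes were past the fold, where 29.1% of 9934 genes were, and Vcam1 (0.766), Icam2 (1.37) and Sele (0.816) were not. The libraries filled the sub-clusters of the ceiling class unevenly: one led by Zfp36 and Egr1 had 110 WT and 7 KO-labelled cells, and one led by Cd36 and Adamts1 had 91 and 0. In the pair of sub-clusters with at least 20 cells in each library, Selp was higher in the KO-labelled cells of each. In the one led by Ackr4 and Cd36 (122 and 40 cells) the Selp ratio was 2.54 (1.62 to 3.96), and in the one led by Igfbp5 and Serpine2 (37 and 20 cells) it was 9.76 (3.67 to 32.7), from 5 and 25 UMIs. Vcam1 parted between them, with 223 and 148 CPM in the former (0.664, 0.449 to 0.956) and 40.7 and 258 CPM in the latter (6.35, 3.26 to 13.3). Alcam was under the fold in the former (1.32, 0.757 to 2.21) and at 4.12 (1.78 to 10.3) in the latter. Icam1 was under the fold in both (1.20 and 0.901), unlike in the whole class. The share of mitochondrial UMIs was 7.15% in WT and 10.4% in KO-labelled ceiling cells, and its part in these ratios was not tested.

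Within medullary or paracortical LECs, Icam2 stood at 28.3 CPM in 47 WT cells and 67.0 CPM in 92 KO-labelled cells (ratio 2.37, interval 1.22 to 5.04). Selp stood at 66.9 and 102 CPM (1.52, 0.967 to 2.47), an interval that holds 1, and the ratio was 0.823 in male cells alone. These were 2 of 6 genes past the fold, where 26.1% of 7739 genes were, which is near the background. Itga2b (0.811), Vcam1 (0.824), Alcam (0.746) and Icam1 (1.49) were under the fold. In a LEC sub-cluster outside the named niches, led by Stab2 and Malat1, Selp stood at 152 CPM in 76 WT cells and 652 CPM in 28 KO-labelled cells (4.31, 3.15 to 5.90), and a single KO-labelled cell held 35 of its 100 UMIs. Mitochondrial UMIs were 9.39% and 15.1% there, and their part was not tested.

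Floor LECs could be set side by side only as values, because the KO-labelled library had 8 such cells. Madcam1, Vcam1, Alcam and Itga2b were read in at least 7 of these 8 cells each. Their intervals overlapped those of the WT floor cells for Vcam1, Alcam and Itga2b, and lay above for Madcam1. Of the 43 Madcam1 UMIs 14 came from 1 cell.

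In high endothelial cells (67 and 38 cells), Sele stood at 132 and 42.8 CPM (ratio 0.324, interval 0.140 to 0.667), the only 1 of 5 genes past the fold, where 29.6% of 5266 genes were, and with coarser clusters (Leiden resolution 0.6) this ratio was 1.35. Vcam1 (1.35), Icam1 (0.856), Icam2 (0.963) and Selp (0.794) were under it, with intervals that held 1. A single KO-labelled cell held 24 of the 94 Selp UMIs. Without the top cell of each library the Selp ratio was 0.659 (0.494 to 0.872), past the fold. Of the WT cells with an assigned sex 89.8% were male and of the KO-labelled ones 35.3%, and the part of sex in the Sele ratio was not tested. In arterial cells (42 and 21 cells), Vcam1 stood at 426 and 248 CPM (0.583, 0.358 to 0.922), Icam2 at 265 and 143 CPM (0.541, 0.281 to 0.987), and Selp at 34.6 and 210 CPM (6.08, 2.39 to 18.3). These were 3 of 4 genes, where 36.3% of 3123 genes were past the fold, and Icam1 (0.829) was the other. All 6 WT Selp UMIs lay in 1 arterial cell, and 12 of the 22 KO-labelled ones in another, and without those 2 cells 0 and 10 UMIs remained, at least 5.81-fold higher in the KO-labelled library. T cell markers summed to 5.76 CPM in WT arterial cells (1 of 6 with UMIs, Cd3e, Cd3d, Cd3g, Trbc1 and Trac at 0) and 172 CPM in KO-labelled ones (6 of 6, 18 UMIs), and pericyte or smooth muscle markers to 69.1 and 229 CPM (2 and 3 of 7, Myh11 and Notch3 at 0 in both). Their part in the arterial ratios was not tested.

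In capillary cells (104 and 38 cells), Selp stood at 12.2 CPM in the WT pool and 103 CPM in the KO-labelled library (ratio 8.44, interval 2.96 to 29.5), from 5 and 16 UMIs. One KO-labelled cell held 12 of the 16, and without the top cell of each library 2 and 4 UMIs remained (5.63, 0.807 to 62.2), an interval that holds 1. With coarser clusters the Selp ratio was 0.671. A single other capillary cell held all 37 platelet-marker UMIs of the KO-labelled class and 2 of its Selp UMIs, and the remaining cells stood at 93.7 CPM. Icam1 stood at 277 and 116 CPM (0.417, 0.238 to 0.688) and Icam2 at 36.5 and 57.8 CPM (1.58, 0.611 to 3.86), so that 3 of 3 genes were past the fold, where 36.3% of 5162 genes were. The Icam1 ratio was 1.20 with the adhesion genes among the clustering genes, and that of Icam2 0.888 in thinned cells. In the one capillary sub-cluster with at least 20 cells in each library (74 and 30 cells), Icam1 stood at 95.6 and 105 CPM (1.09, 0.535 to 2.14). The Icam1 ratio of the whole class thus rested on the sub-cluster led by Depp1 and Acer2, which had 30 WT and 8 KO-labelled cells.

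Venous cells numbered 42 and 18, under the minimum, and are given as values: Selp and Sele were lower in the KO-labelled cells, with intervals that did not overlap for Selp and did for Sele, and Icam1 was higher, without overlap. In tip-like capillary cells, which resemble sprouting endothelium (97 and 125 cells), neither Icam1 (100 and 99.5 CPM, 0.991) nor Icam2 (1.1) was past the fold, where 22.9% of 7753 genes were. In cycling BECs (48 and 41 cells), Icam1 stood at 347 and 96.0 CPM (0.276, 0.182 to 0.409) and Selp at 93.2 and 169 CPM (1.81, 1.16 to 2.87), 2 of 4 genes, where 30.7% of 6215 genes were past the fold, and in thinned cells the Selp ratio was 0.925.

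**Figure D3:**
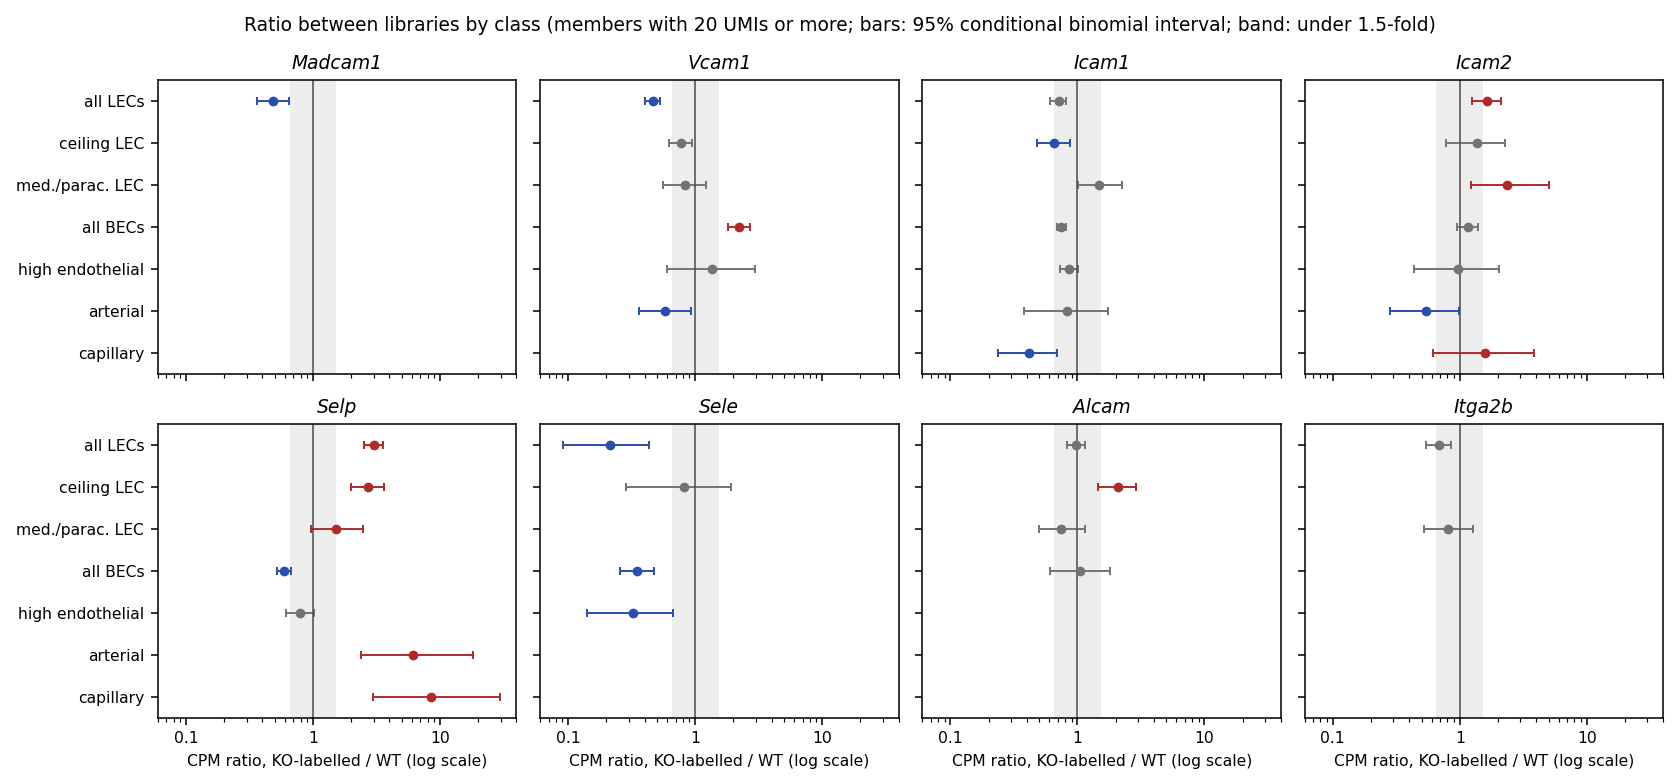
Ratio of CPM in the KO-labelled library over the WT library (x axis, log scale) for each gene with at least 20 UMIs over both libraries. The classes drawn (y axis) are all LECs, ceiling and medullary or paracortical LECs, all BECs, and high endothelial, arterial and capillary cells. Each had at least 20 cells in each library. Bars are 95% conditional binomial intervals and the grey band is under 1.5-fold. Selp lies to the right of the band in LECs (3.0) and to the left in BECs (0.589), whereas Vcam1 lies to the left in LECs (0.462) and to the right in BECs (2.21).

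Cells of both sexes were pooled in each library, and each cell was assigned by Xist and Y-linked UMIs where it had them. In LECs the direction was the same in male and female cells for Vcam1 (0.522 and 0.349), Selp (3.16 and 2.46) and Icam2 (1.71 and 2.19). Madcam1 had a ratio of 0.343 in male LECs and 0.900 in female LECs. In BECs Selp was lower in both (0.669 and 0.506), as was Sele (0.407 and 0.242). Vcam1 was 2.61 in male BECs and 0.955 in female BECs, and the male cells included the Cxcl9-led sub-cluster. Icam1 went in opposite directions, at 467 and 217 CPM in 332 and 251 male BECs (0.465, 0.410 to 0.527) and 374 and 702 CPM in 79 and 119 female BECs (1.88, 1.53 to 2.31). High endothelial cells, where Icam1 is highest, were mostly male in the WT pool and mostly female in the KO-labelled library, and the part of this in the Icam1 ratios was not tested.

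Other genes of the adhesion pathway were read in lists. Of 13 leukocyte integrins and counter-receptors of these molecules, 4 had enough UMIs in LECs, 1 higher and 2 lower past the fold. Cd44, a hyaluronan receptor and one of the floor markers, was at a ratio of 0.323, the T cell receptor partner Cd5 at 0.584 and Itgb1 at 1.15. In BECs 2 had enough UMIs and neither was past the fold (Cd44 0.864, Itgb1 1.13). Of 9 partners of the alpha IIb chain, 8 were measured: 1 higher and 2 lower in LECs (Itgb3, the beta3 partner, 1.5, and Itga2 0.376), and 2 higher and 0 lower in BECs (Itgb3 1.94 and Itga2 1.55). The median log2 ratio of that list was -0.20 in LECs and 0.31 in BECs, against 0.03 and -0.02 over all genes tested.

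Of 16 cytokine receptors and NF-kappaB regulators that act upstream of the inducible adhesion genes, 1 was higher and 5 lower in LECs, and 0 were higher and 6 lower in BECs. The shares over all genes were 11.3% higher and 13.0% lower in LECs, and 6.52% and 9.69% in BECs. The median log2 ratio of the list was -0.40 in LECs and -0.42 in BECs. In medullary or paracortical LECs 14 of the list were measured, 3 higher and 2 lower, where 13.5% of 7739 genes were higher and 12.6% lower. The median of the list there was 0.23, against -0.01 over all genes tested. In LECs Rela, an NF-kappaB subunit, was at 0.417, and Il1r1, the interleukin 1 receptor, at 0.462. In BECs Tnfrsf11a, the RANK receptor, was at 0.388, and Nfkbie, an NF-kappaB inhibitor, at 0.533. Of 9 granule partners of P-selectin, 6 were measured in LECs (0 higher, 2 lower, median log2 0.16) and 7 in BECs (1 higher, 2 lower, median -0.25). Vwf, which shares the storage granules with P-selectin, was at 0.573 in BECs, where Selp was at 0.589. Vwf is also a marker that named the venous class, which made up 6.65% of WT and 3.56% of KO-labelled BECs. The part of that share in both ratios was not tested.

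Of 24 other endothelial adhesion and transmigration genes, 20 were measured in LECs (4 higher, 2 lower) and 21 in BECs (0 higher, 2 lower), with median log2 ratios of 0.15 and 0.06. Glycam1, a sulphated sugar carrier bound by L-selectin, was at 0.286 in LECs. Glycam1 reads in LECs came from the floor class, at 5907 and 7032 CPM there, against 6123 and 12958 CPM in high endothelial cells. Stab1, a scavenger receptor of sinus endothelium, was at 1.86 in LECs and 1.43 in BECs, and Thy1 at 1.93 in LECs. Of 8 sheddases and membrane linkers, 0 were higher and 1 lower in LECs, and none was past the fold in BECs. Ezr, which anchors ICAMs to actin, was at 0.781 in LECs, and Adam17, which cleaves VCAM-1, at 1.23.

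**Figure D4:**
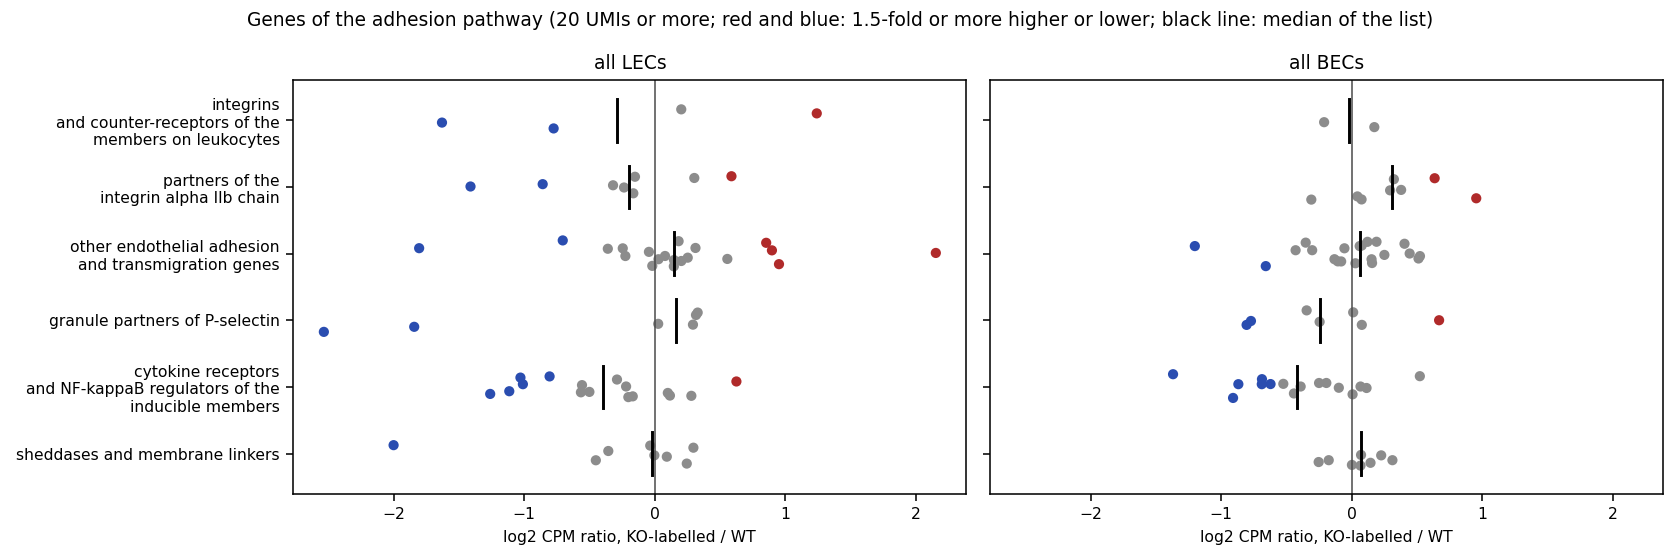
Log2 ratio of CPM in the KO-labelled library over the WT library (x axis) for each gene with at least 20 UMIs in the lists of the adhesion pathway (y axis), in LECs (left) and BECs (right). Red and blue points are past 1.5-fold higher and lower, and black lines are list medians. The cytokine receptor and NF-kappaB list has its median at -0.40 in LECs and -0.42 in BECs.

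Over 28 points (each endothelial class with at least 20 cells in a library, 16 from the WT library and 12 from the other, so that points share a library and the KO-labelled floor and venous cells are absent), the genes whose log2 level followed each adhesion gene most closely among 8193 genes were as follows, as a description. Madcam1 was closest to Mmp9 (Pearson r 0.931), Coch (0.928) and Ccl20 (0.924), and Itga2b to C3 (0.936), Il13ra2 (0.921) and Flrt3 (0.911). Coch and Ccl20 are markers that named the floor class, as is Csf1, given next. Dpyd (0.922) and Sema3a (0.918) were among the 3 closest to Alcam, and Vcam1 was closest to Csf1 (0.822), Cfb (0.791) and Ehd1 (0.780). Icam1 was closest to Sik1 (0.860), Tnfaip3 (0.850) and Dclk1 (0.839), and Icam2 to Gsto1 (0.790), Gja5 (0.783) and Vegfc (0.777). Tnfaip3 is an NF-kappaB target and inhibitor, and Gja5 is a marker that named the arterial class. The selectins had the lowest leading values, with Acer3 (0.618) and Gatd3a (0.608) leading for Selp and Ehd3 (0.731), Spint2 (0.703) and Bst1 (0.690) for Sele.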

How the data were processed

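The deposited files hold whole-number counts of reads and of molecules per barcode and gene, not normalized and for all barcodes, per the file headers. The authors made these counts with the BD Rhapsody WTA Analysis Pipeline 1.11 (Enhanced beads, mm10, intronic reads not excluded, no sample tags), per the file headers, and mm10 is also named in the submitters' processing notes. The error-corrected molecule counts were used. Intronic reads count towards a gene, whether strand was used is not given in the sources used here, and Vcam1, Icam1 and Selp overlap annotated antisense genes.

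Cells were called again at the bend of the ranked UMI curve (4082 and 4387 barcodes with at least 1235 and 1223 UMIs), and those with under 200 genes or over 25% mitochondrial UMIs were removed. Scrublet doublets (26 and 32 cells, 0.669% and 0.764%) were removed too. Cells were clustered in scanpy 1.11.5 (2000 variable genes without the adhesion genes, 30 components, 15 neighbours, Leiden resolution 1, no batch integration), and LECs and BECs were clustered again. Sub-clusters led by other cell types (12 and 5 LECs, 10 and 11 BECs) were left out. Naming scores and thresholds were set after clusters had been seen.

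The genes, the lists and the comparisons were chosen with earlier results of these data known. The named list genes are the 2 highest and 2 lowest ratios with at least 100 UMIs, of which the text gives those it discusses. A few genes that these rules name are not reported here. The likeness ranking used log2(CPM + 10) and genes with at least 200 UMIs.

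UMIs were summed per class and library. Levels carry exact Poisson, shares of cells Clopper-Pearson and ratios conditional binomial 95% intervals, which treat UMIs as independent and leave out variation between cells. A count of 0 was set to 3 counts in a ratio, and no ratio was given where both counts were at most 3. The ratio script was tested on simulated data. Positions are from GENCODE M21 (GRCm38) and upstream windows from RefSeq (GRCm38.p6), which held 6 of the 8 genes. The motif search, the ratios without top cells and those within sub-clusters were chosen after seeing the data.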

Additional observations from a re-analysis of the deposited data

Results flagged for a closer look

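Vcam1 moved in opposite directions in the 2 kinds of endothelium, with ratios of the KO-labelled over the WT library of 0.462 in LECs and 2.21 in BECs. The BEC ratio was 0.694 without the Cxcl9-led sub-cluster and 0.955 in female cells. Selp did the reverse, with 3.0 in LECs and 0.589 in BECs, although within BECs it was at 6.08 in arterial, 8.44 in capillary and 1.81 in cycling cells. Icam2 was at 0.541 in arterial and 1.58 in capillary cells, the latter with an interval that holds 1. Icam1 was at 0.465 in male BECs and 1.88 in female BECs. None of these differences between groups was tested, because each genotype has 1 library.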

How the results depend on the processing

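The count of genes past the fold was 5 in LECs and 3 in BECs, and over all settings it lay between 2 and 7 and between 2 and 4. In the mean log ratio of the named classes with at least 20 cells in each library it was 2 in LECs. Over the classes 14 ratios were past the fold. This count was 7 with at most 10% mitochondrial UMIs, 9 with thinned cells and 8 at 2-fold. It was 9 in male cells, 6 in female cells, and 9 without cells whose barcode was listed in both libraries. In female cells only ceiling LECs had at least 20 cells in each library. In male cells only ceiling and medullary or paracortical LECs and tip-like and cycling BECs did, so these counts come from fewer classes. Thinning left 15 KO-labelled arterial cells, under that minimum. Of the 8 highest classes in the WT library, 4 were the same in female cells alone. Only floor LECs (32) and ceiling LECs (75) had the minimum of 20 WT female cells there. Floor cells were thus set against ceiling cells only, and the genes led by BEC classes could not keep theirs. Madcam1, Vcam1, Alcam and Itga2b kept their highest class in 14 of 14 settings, Icam1 and Icam2 in 13, and Selp and Sele in 10. The WT venous class had 12 male and 19 female cells, under the minimum of 20. Selp and Sele therefore could not keep that class in the male or the female setting.

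Some ratios turned round. The Vcam1 ratio in BECs was 0.955 in female cells, 0.975 in the mean over 5 named classes, which leaves out venous cells, and 0.694 without the Cxcl9-led sub-cluster, and Selp in BECs was 3.53 in that mean. Madcam1 in LECs was 2.76 without floor cells. In capillary cells Icam1 was 1.20 with the adhesion genes among the variable genes, Selp 0.671 at Leiden resolution 0.6 and Icam2 0.888 with thinned cells. Sele in high endothelial cells was 1.35 at Leiden resolution 0.6. Selp was 0.925 in cycling BECs with thinned cells and 0.823 in male medullary or paracortical LECs. The causes were not tested. Of the other ratios 646 stayed within their interval and 87 moved in size, and of the levels 1052 stayed and 132 moved. No paired analysis was possible because each genotype has 1 library. Depth limits mainly the KO-labelled floor cells (8) and the arterial and capillary Selp ratios.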

Other observations

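Adhesion genes were also read in the sorted immune cells. Icam1 stood at 56.9 and 55.5 CPM in T cells of the WT and KO-labelled libraries and at 219 and 127 CPM in a cluster led by Plac8 and Tyrobp (93 and 68 UMIs). Alcam stood at 179 and 145 CPM in that cluster, and at 16.4 and 20.7 CPM in T cells. In barcodes under 100 UMIs, which mostly hold RNA outside cells, Alcam was at 296 CPM in both libraries. In the same barcodes Vcam1 was at 147 and 36.9 CPM, Icam1 at 401 and 211 CPM, and Madcam1 at 11.1 and 2.14 CPM.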
